A study of Mus musculus with 12 samples.

Results

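The 10 genes described here encode contractile proteins of smooth muscle, together with the alpha actin of skeletal muscle, Acta1. They are the actins Acta1, Acta2 and Actg2, the actin-binding proteins Tagln, Cnn1, Tpm1, Tpm2 and Lmod1, and the myosin chains Myl9 and Myh11. The genes were chosen by name from a table of 21881 genes, in which all 10 were present. They and the lists of other genes below were chosen with earlier results of these data known. Counts set beside shares of all genes are therefore descriptions. The table holds FPKM, a fragment level corrected for transcript length and for the size of the library. Polyadenylated RNA came from mesenchymal stem cells, fibroblast-like cells of adult bone marrow, of C57BL/6 mice. The cells were kept as immortalized monoclonal lines. WT_siCtrl is the Dicer f/f line, which carries the floxed gene and is labelled Dicer wild type, after transfection with a nontargeting control siRNA. KO_siCtrl is the Dicer -/- line with the same control siRNA, KO_let-7g is that line with the microRNA let-7g, and KO_siNr6a1 is that line with siRNA against Nr6a1, which encodes an orphan nuclear receptor. Every transfection used 20 nM of RNA with the HiPerfect reagent, cells were harvested 48 h later, and each group has 3 libraries, numbered 0, 1 and 2. How many clonal lines stand behind each genotype was not among the facts the labels give, so the genotype and the line cannot be told apart. All 3 Dicer -/- groups share the deletion, and no Dicer f/f group received let-7g or siRNA against Nr6a1.

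Smooth muscle cells shorten when myosin filaments pull on actin filaments. The regulatory light chain, phosphorylated by myosin light chain kinase downstream of calcium and RhoA, switches the motor on, while tropomyosin, calponin and transgelin lie along the actin filament. Most of these genes share a dependence on serum response factor (SRF), which binds the CArG box in their promoters, and on its coactivators of the myocardin family. Mesenchymal stem cells and myofibroblasts are known to carry part of this set, with smooth muscle alpha actin, the product of Acta2, the usual marker. Dicer cuts microRNA precursors, and let-7g is a microRNA of the let-7 family.

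The promoter sequences are shown because the SRF element is the feature that the family is best known to share. RefSeq promoter windows (GRCm38.p6) were at hand for 7 of the 10 genes, Acta1, Acta2, Cnn1, Myl9, Tpm1, Tpm2 and Lmod1. In the 250 bases before the annotated start, searched on both strands, an exact CArG box was present in 2 of the 7, Acta1 and Myl9, against 1.47% of 32851 windows of the same length. At least 1 CArG box with at most 1 mismatch was present in 5 of the 7, against 18.6% of the windows. That wider class includes the exact boxes. Capitals mark these matches in the stretches below, each printed on the strand of its gene.
Acta1, chr8:123894824-123894995, minus strand: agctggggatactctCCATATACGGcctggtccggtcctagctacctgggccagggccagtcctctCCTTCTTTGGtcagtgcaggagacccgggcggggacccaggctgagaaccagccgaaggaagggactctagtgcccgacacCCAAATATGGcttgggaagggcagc
Acta2, chr19:34255383-34255472, minus strand: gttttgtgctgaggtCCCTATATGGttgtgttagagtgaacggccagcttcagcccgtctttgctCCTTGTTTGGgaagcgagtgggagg
Myl9, chr2:156775288-156775389, plus strand: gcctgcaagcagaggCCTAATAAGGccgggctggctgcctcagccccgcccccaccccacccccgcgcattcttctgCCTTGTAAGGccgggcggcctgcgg
Tpm1, chr9:67049269-67049449, minus strand: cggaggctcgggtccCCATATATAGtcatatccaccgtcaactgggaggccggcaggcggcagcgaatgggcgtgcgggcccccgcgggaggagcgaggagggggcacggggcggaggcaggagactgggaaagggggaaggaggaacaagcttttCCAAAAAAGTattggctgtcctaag
Lmod1, chr1:135324609-135324673, plus strand: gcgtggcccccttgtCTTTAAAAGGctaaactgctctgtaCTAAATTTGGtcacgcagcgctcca
The exact boxes began 73 bases before the start of Acta1 and 161 bases before that of Myl9. The MCAT element CATTCC, read by TEAD factors, was found on either strand in Acta1, Acta2, Tpm1 and Lmod1, 4 of 7, against 12.6% of all windows, and it overlaps none of the CArG letters. The NR6A1 element TCAAGGTCA was found in 0 of 7, against 0.387% of all windows. A match describes letters in these windows and not a site in use.

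The let-7g sequence is shown because it is the treatment of 1 group, with its seed, bases 2 to 8, in capitals. It lies at chr9:106178846-106178867 on the plus strand of GRCm38.p6.
mmu-let-7g-5p: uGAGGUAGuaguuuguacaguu
The longest annotated 3′ UTR of each of the 10 genes was searched on its own strand for the complement of the seed, CTACCTC, and for the same site followed by A, CTACCTCA. There was 1 such site each in Cnn1, Myl9 and Tpm2 and none in the other 7 genes. The shorter site TACCTCA was present once each in Acta1 and Lmod1. Capitals mark the sites.
Cnn1, from base 1339 of 1399: taacgaagatctgcCTACCTC
Myl9, from base 44 of 496: cccatcccagtcacCTACCTC
Tpm2, from base 1032 of 1210: ctgtttaccctcccCTACCTCA

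Libraries were of like size. Relative depth, set to 1 in the shallowest library, was at most 1.82, and 11032 to 11465 genes per library reached 1 FPKM. Dicer1 averaged 6.58 ± 1.45 FPKM (SD, n = 3) in WT_siCtrl and 2.7 to 3.86 in the Dicer -/- groups. Dicer1 reads outside the deleted part are not a check of the deletion. Nr6a1 averaged 11.7 ± 1.32 FPKM in KO_siCtrl, 3.68 ± 0.539 in KO_siNr6a1, 4.22 ± 1.04 in KO_let-7g and 1.12 ± 0.158 in WT_siCtrl. Of 10 markers of mesenchymal stem cells, 9 reached 1 FPKM in some library, with summed levels of 605 to 721 FPKM over all 12 libraries. Single markers differed: 4 of the 9 were higher and 4 lower in KO_siCtrl than in WT_siCtrl. The shares of all tested genes were 29.1% higher and 25.2% lower. The marker that did not reach 1 FPKM was Thy1, listed at 0 in all libraries but KO_let-7g replicate 1. In contrast, 14 genes used by every cell stood at 16.6 FPKM or above in all libraries. Nothing in the labels ties the 3 libraries of a group to separate cultures. The p-values therefore measure a spread between libraries that may be technical.

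The Dicer -/- line held a small fraction of the contractile transcripts of the Dicer f/f line. Acta2, Actg2, Tagln, Cnn1 and Myl9 in KO_siCtrl stood at 0.366% to 2.91% of their WT_siCtrl means, Lmod1 at 13.5%, Tpm2 at 28.4%, Tpm1 at 32.6% and Acta1 at 65.6%. The tenth gene, Myh11, was near the bottom of the scale in every group. In the plot of levels by library, the lowest WT_siCtrl library of each of the first 5 genes stood at least 16.6 times above the highest of the 9 Dicer -/- libraries. RNA of the whole culture was measured, so fewer cells with the transcripts and less RNA per cell cannot be told apart.

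**Figure D1:**
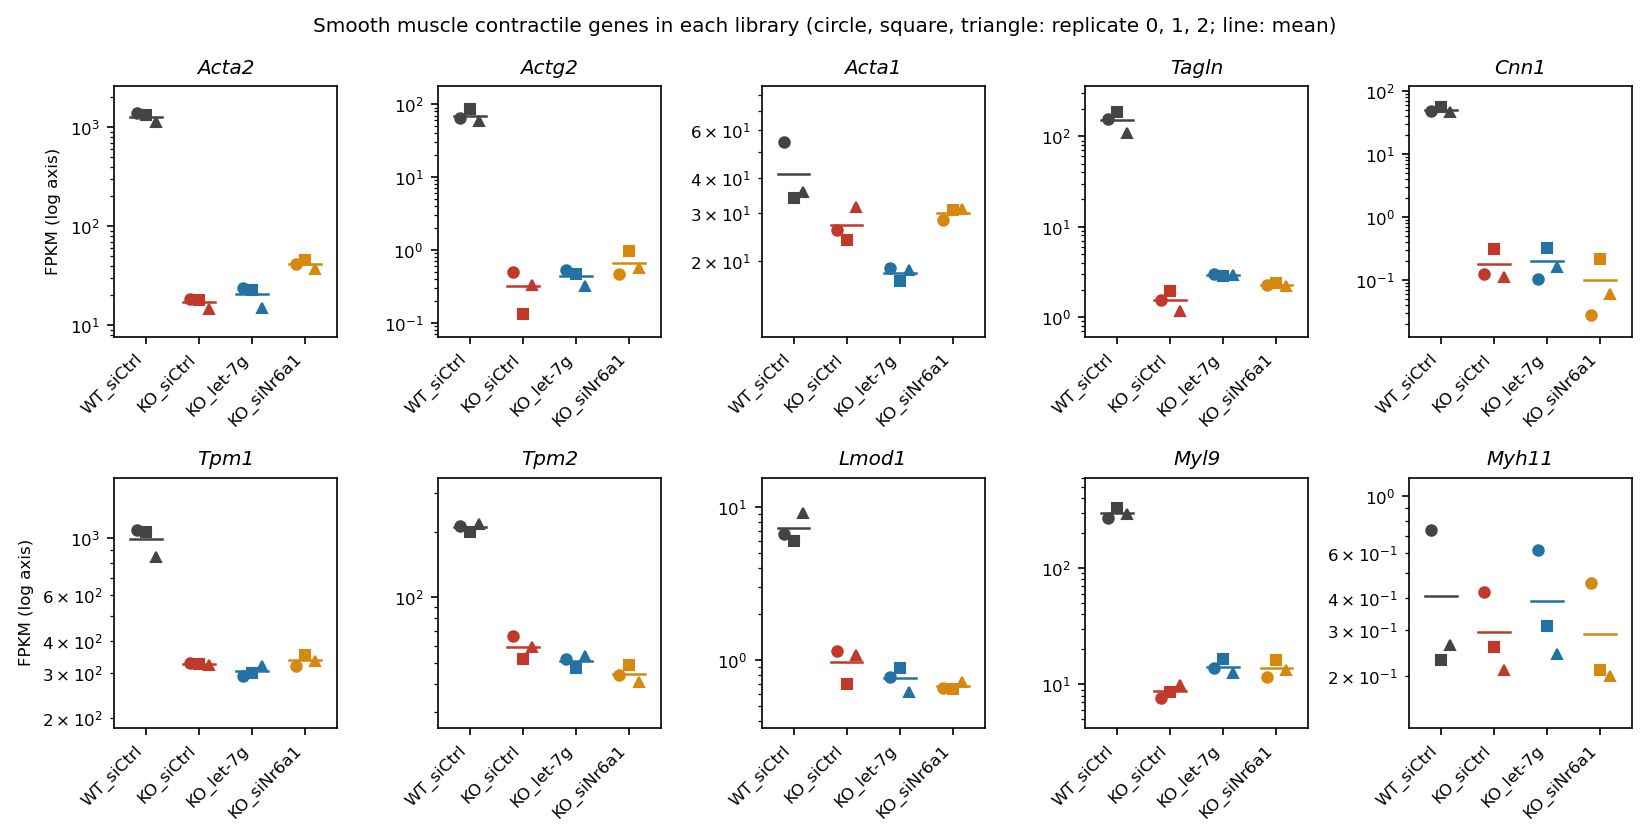
FPKM of the 10 genes in each of the 12 libraries, 1 panel per gene with its own log axis. Points are libraries (circle, square and triangle for replicate 0, 1 and 2), lines are group means, and groups run along the horizontal axis. Acta2 falls from a WT_siCtrl mean of 1282 to 17.1 in KO_siCtrl, whereas Acta1 goes from 41.4 to 27.2 and Myh11 stays under 1 FPKM in every library.

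Acta2, smooth muscle alpha actin, was the most abundant of the 10 transcripts in WT_siCtrl, at 1386, 1343 and 1119 FPKM (mean 1282 ± 144 SD, n = 3). KO_siCtrl gave 18.5, 18.2 and 14.4 FPKM, KO_let-7g 23.8, 22.8 and 15.1 FPKM, and KO_siNr6a1 41.5, 46.0 and 37.1 FPKM. The 3 groups of the Dicer -/- line were far below WT_siCtrl, and the KO_siNr6a1 libraries all lay above the other 6 of that line. On the log2(FPKM + 1) scale used for every fold change here, the difference between KO_siCtrl and WT_siCtrl was -6.15 (SE 0.17, limma, adjusted p = 5.29e-10), a ratio of means of 75.2.

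Actg2, smooth muscle gamma actin of the gut and other visceral muscle, went from 64.5, 86.1 and 59.4 FPKM in WT_siCtrl to 0.501, 0.133 and 0.332 in KO_siCtrl. It stood at 0.536, 0.461 and 0.324 FPKM in KO_let-7g and at 0.473, 0.957 and 0.568 FPKM in KO_siNr6a1. No Dicer -/- library reached 1 FPKM, and the ranges of the 3 Dicer -/- groups overlapped. The difference between KO_siCtrl and WT_siCtrl was -5.74 (SE 0.16, limma, adjusted p = 7.01e-10), a ratio of means of 217.

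Acta1, the alpha actin of skeletal muscle, behaved unlike the smooth muscle pair in size. It stood at 54.4, 34.0 and 35.7 FPKM in WT_siCtrl, 25.9, 23.9 and 31.6 in KO_siCtrl, 18.9, 17.0 and 18.6 in KO_let-7g and 28.2, 30.6 and 30.9 in KO_siNr6a1. The groups WT_siCtrl and KO_siCtrl did not overlap, but the gap between 34.0 and 31.6 FPKM was small beside the spread of WT_siCtrl, whose replicate 0 was the high library. The difference was -0.57 (SE 0.16, limma, adjusted p = 0.0103). With replicate 0 of every group left out it was -0.33 with adjusted p = 0.0841, which does not pass the threshold of 0.05 (range over 23 alternatives 0.00658 to 0.0841). In KO_siCtrl the FPKM of Acta1 was above that of Acta2 in each library, while in WT_siCtrl Acta2 was the far more abundant. Of 10 skeletal muscle markers only Mb, myoglobin, reached 1 FPKM in any library, and the muscle determination gene Myf5 was listed at 0 in all 12.

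The actin genes are close relatives, which bears on how fragments were shared among them. Over their coding sequences Acta1 and Acta2 are 85.4% identical. The longest run shared by their transcripts is 29 bases, and Acta1 shares a run of 77 bases with the cytoplasmic actin Actb. Acta2 shares a run of 56 bases with the cytoplasmic actin Actg1 and of 47 bases with Actb. How the authors' counting split shared fragments was not stated, so the value of a low actin beside an abundant one is uncertain. The summed level of Acta1, Acta2, Actg2 and the cardiac actin Actc1 was 1404 ± 154 FPKM in WT_siCtrl (SD, n = 3). It was 45.1 ± 2.05 FPKM in KO_siCtrl, 39.6 ± 4.55 with let-7g and 72.8 ± 4.86 with siRNA against Nr6a1. The sum fell by 4.93 on the log2 scale in KO_siCtrl against WT_siCtrl (limma, adjusted p = 1.12e-10). It leaves out the cytoplasmic actins Actb and Actg1, so fragments shared with them are not covered by it.

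Tagln encodes transgelin (SM22 alpha), an actin cross-linking protein. It stood in WT_siCtrl at 157, 187 and 110 FPKM. KO_siCtrl gave 1.55, 1.95 and 1.17 FPKM, KO_siNr6a1 2.25, 2.36 and 2.20 FPKM, and KO_let-7g 2.99, 2.84 and 2.90 FPKM. These 3 ranges did not overlap, and KO_let-7g was the highest of them. The difference between KO_siCtrl and WT_siCtrl was -5.88 (SE 0.17, limma, adjusted p = 8.58e-10), a ratio of means of 97.4.

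Cnn1, calponin 1, which binds actin and restrains myosin, had the largest ratio of means of the 10 genes, 273. WT_siCtrl stood at 48.3, 55.1 and 46.4 FPKM, and KO_siCtrl at 0.125, 0.311 and 0.113 FPKM. KO_let-7g gave 0.103, 0.327 and 0.164 FPKM, and KO_siNr6a1 0.0277, 0.219 and 0.0599 FPKM. The Dicer -/- libraries overlapped and were all low, with replicate 1 the highest in each of the 3 groups. Corrected for relative depth, 7 of these 9 low values were whole multiples, within 0.01, of the smallest, from 1 to 13 times it. The corresponding multiples were 1716.50 to 2285.83 in WT_siCtrl. If the smallest value is 1 fragment, the Dicer -/- levels rest on at most about 14.08 fragments a library, and differences among those groups were not detectable at this depth. The difference between KO_siCtrl and WT_siCtrl was -5.43 (SE 0.12, limma, adjusted p = 1.41e-10).

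The tropomyosins, coiled coils that lie along the actin filament, kept the largest absolute levels in the Dicer -/- line. Tpm1 was at 1077, 1056 and 849 FPKM in WT_siCtrl and at 327, 323 and 322 in KO_siCtrl, then 292, 298 and 320 in KO_let-7g and 318, 353 and 335 in KO_siNr6a1. Tpm2 was at 211, 199 and 217 FPKM in WT_siCtrl, 66.4, 52.4 and 59.2 in KO_siCtrl, 52.0, 47.6 and 54.0 in KO_let-7g and 44.3, 48.8 and 41.0 in KO_siNr6a1. Both were lower in all 9 Dicer -/- libraries than in any WT_siCtrl library. The differences between KO_siCtrl and WT_siCtrl were -1.60 (SE 0.09, limma, adjusted p = 1.71e-07) for Tpm1 and -1.81 (SE 0.10, adjusted p = 8.41e-08) for Tpm2. Both genes give muscle and non-muscle isoforms, and a level per gene does not separate them.

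Lmod1, leiomodin 1, which starts new actin filaments in smooth muscle, was a low transcript throughout. It stood at 6.64, 5.99 and 9.06 FPKM in WT_siCtrl, 1.15, 0.696 and 1.07 in KO_siCtrl, 0.778, 0.891 and 0.616 in KO_let-7g and 0.662, 0.644 and 0.724 in KO_siNr6a1. WT_siCtrl lay above the other 9 libraries, which overlapped. The difference between KO_siCtrl and WT_siCtrl was -2.05 (SE 0.14, limma, adjusted p = 5.49e-07), a ratio of means of 7.43.

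Myl9 encodes the regulatory myosin light chain of smooth muscle. It stood at 272, 332 and 293 FPKM in WT_siCtrl and at 7.59, 8.65 and 9.89 in KO_siCtrl, with 13.8, 16.4 and 12.4 FPKM in KO_let-7g and 11.6, 16.1 and 13.4 in KO_siNr6a1. All 6 treated libraries of the Dicer -/- line lay above its 3 control libraries, and the 2 treatments overlapped. The difference between KO_siCtrl and WT_siCtrl was -4.95 (SE 0.14, limma, adjusted p = 7.01e-10), a ratio of means of 34.3.

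Myh11, the smooth muscle myosin heavy chain and the most restricted marker of differentiated smooth muscle, was barely present in either genotype. Its levels were 0.736, 0.230 and 0.263 FPKM in WT_siCtrl, 0.421, 0.258 and 0.211 in KO_siCtrl, 0.618, 0.312 and 0.243 in KO_let-7g and 0.459, 0.211 and 0.2 in KO_siNr6a1. All 4 groups overlapped, and replicate 0 was the highest library of each. Myh11 did not reach 1 FPKM in any library and so was not tested. Fitted without the filter, the difference between KO_siCtrl and WT_siCtrl was -0.11 (95% interval -0.44 to 0.23, limma, adjusted p = 0.667). The WT_siCtrl cells thus had abundant Acta2, Myl9 and Tagln transcripts with hardly any transcript of the heavy chain.

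Of the 10 genes, 9 passed the filter of 1 FPKM in at least 3 libraries, and all 9 were lower in KO_siCtrl than in WT_siCtrl at adjusted p under 0.05. Among the 11801 genes tested, 25.2% were lower by that rule. The members were chosen with earlier results of these data known, so their count is a description and not a test. Actg2 and Cnn1 passed the filter through the WT_siCtrl libraries alone, and Lmod1 passed only with them, so a difference was built into their passing. The 6 others were at 1 FPKM or above in all 12 libraries. The median log2 difference of the 9 was -4.95, beside 0.04 for all genes tested. The sets of WT_siCtrl and KO_siCtrl values did not overlap for any of the 9, a separation that 57.2% of all genes tested also showed. That share is given for no other comparison, so separations between other groups only describe the libraries. Markers of pericytes, contractile cells that wrap small vessels, were measured beside them: 2 of 6, Mcam and Notch3, reached 1 FPKM in some library. The summed level of the 6 was 42.5 to 54.7 FPKM in WT_siCtrl and 3.22 to 7.47 FPKM over the 9 Dicer -/- libraries, a sum carried by Mcam, which went from a mean of 44.4 to 3.52 FPKM in KO_siCtrl. Notch3 overlapped between the genotypes, at 1.17 to 2.16 FPKM in WT_siCtrl and 1.52 to 2.46 FPKM in KO_siCtrl. Markers of heart muscle, of which 3 of 7 reached 1 FPKM, summed to 1.38 to 1.75 FPKM in WT_siCtrl and 5.87 to 7.91 in KO_siCtrl. The part of either set in these results was not tested.

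**Figure D2:**
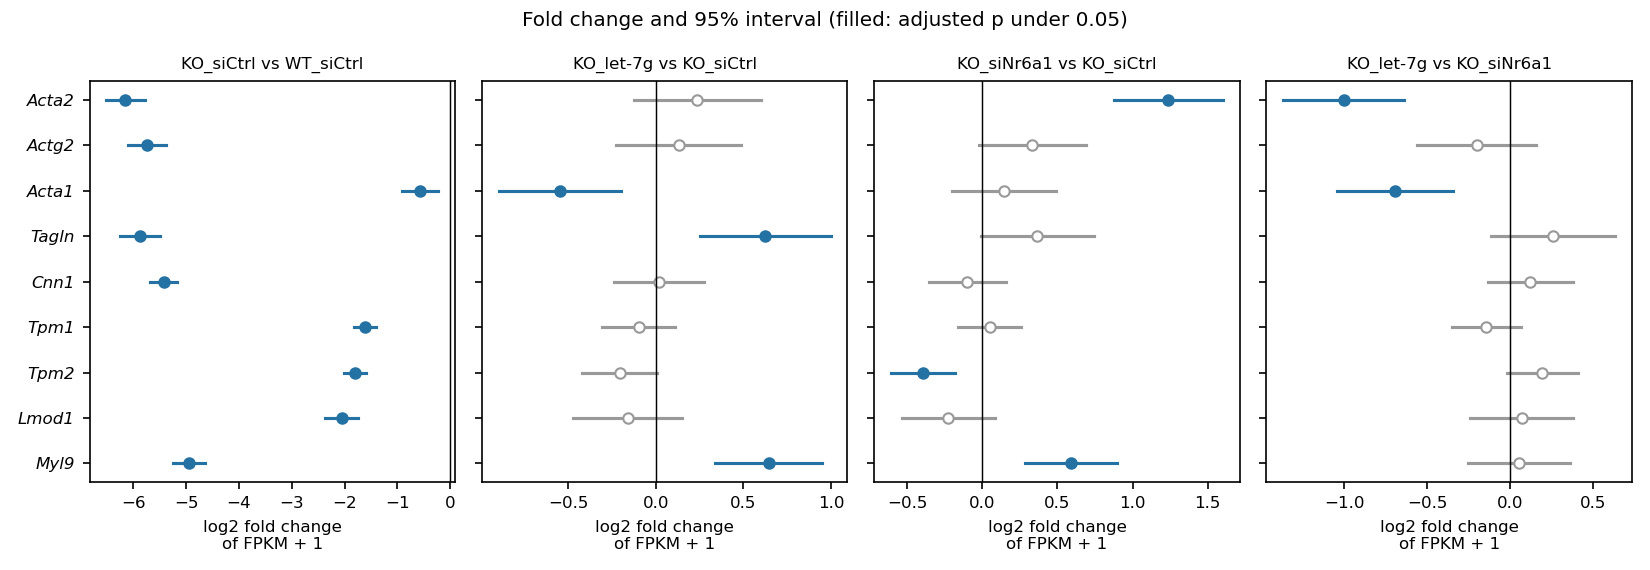
Log2 differences of the 9 tested genes on the log2(FPKM + 1) scale with 95% intervals from limma, in 4 comparisons, each panel on its own scale. Filled points have adjusted p under 0.05. KO_siCtrl against WT_siCtrl runs from -0.57 for Acta1 to -6.15 for Acta2, while the other comparisons stay between -1.0 and 1.24.

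With let-7g in the Dicer -/- line, 3 of the 9 tested members were called: Myl9 and Tagln higher and Acta1 lower. Myl9 rose by 0.65 on the log2 scale (95% interval 0.34 to 0.95, limma, adjusted p = 0.00306), from a mean of 8.71 ± 1.15 to 14.2 ± 2.0 FPKM (SD, n = 3). Tagln rose by 0.62 (0.25 to 1.0, adjusted p = 0.0112), from 1.56 ± 0.391 to 2.91 ± 0.0762 FPKM. Acta1 fell by 0.55 (interval -0.90 to -0.20, adjusted p = 0.0152), from 27.2 ± 3.99 to 18.1 ± 1.04 FPKM. The other 6 did not pass the test, with values between -0.21 for Tpm2 and 0.24 for Acta2. In counts, 2 of 9 were higher and 1 of 9 was lower, where 27.5% of all tested genes were higher and 18.2% lower. The rise of Tagln was not called without replicate 0 of every group (0.61, adjusted p = 0.0997, range over 23 alternatives 0.00158 to 0.0997). The fall of Acta1 was not called without KO_siCtrl replicate 2 (-0.44, adjusted p = 0.0609) or without KO_let-7g replicate 1 (-0.50, adjusted p = 0.0522, range over the alternatives 0.00127 to 0.0609).

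For Acta2 and Tpm2 the call with let-7g depended on the fit. The mean of Acta2 went from 17.1 ± 2.27 to 20.5 ± 4.76 FPKM, a difference of 0.24 (interval -0.13 to 0.60, limma, adjusted p = 0.268). In KO_let-7g, replicate 2 at 15.1 FPKM lay within the KO_siCtrl range and the other two libraries lay above it. Without that library the difference was 0.43 with adjusted p = 0.0264, and with the replicate number as a block it was 0.24 with adjusted p = 0.0288, in a range of 0.0264 to 0.62 over the 23 alternatives. For the 3 genes with a seed match in the 3′ UTR shown above, the differences with let-7g were 0.65 for Myl9, 0.02 for Cnn1 (interval -0.24 to 0.27, adjusted p = 0.915) and -0.21 for Tpm2 (interval -0.42 to 0.01, adjusted p = 0.105). Tpm2 was called lower in 3 of the 23 alternatives: after median of ratios scaling (adjusted p = 0.034), with library weights (adjusted p = 0.0456) and without KO_siCtrl replicate 1 (adjusted p = 0.035), in a range of 0.034 to 0.438.

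siRNA against Nr6a1 moved Acta2 further than let-7g did. Acta2 rose by 1.24 against KO_siCtrl (95% interval 0.88 to 1.60, limma, adjusted p = 0.000351), a ratio of means of 2.44. The cytoplasmic actin Actg1, which shares a run of 56 bases with Acta2, rose by 1.32 in the same comparison (adjusted p = 4.26e-05). Whether shared fragments entered the Acta2 value was not tested. Myl9 rose by 0.59 (0.29 to 0.90, adjusted p = 0.00873), to 13.7 ± 2.3 FPKM. Tpm2 fell by 0.40 (interval -0.61 to -0.19, adjusted p = 0.0104), from 59.4 ± 7.02 to 44.7 ± 3.94 FPKM. Tagln was at 2.27 ± 0.0797 FPKM, above every KO_siCtrl library, with a difference of 0.37 that did not pass (interval -0.01 to 0.74, adjusted p = 0.129) and that was called in 2 of the 23 alternatives. Acta1 (0.14), Actg2 (0.33), Cnn1 (-0.10), Lmod1 (-0.23) and Tpm1 (0.05) did not pass either. In counts, 2 of 9 were higher and 1 of 9 was lower, where 13.2% of all tested genes were higher and 16.3% lower. The fall of Tpm2 was not called without replicate 0 of every group (-0.31, adjusted p = 0.128, range over the alternatives 0.000392 to 0.128).

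The 2 treatments were also set against each other directly, which tests whether their effects on the same line differ. Acta2 was lower with let-7g than with siRNA against Nr6a1, by 1.0 on the log2 scale (interval -1.37 to -0.64, limma, adjusted p = 0.000801), and Acta1 was lower by 0.69 (interval -1.04 to -0.34, adjusted p = 0.00531). Neither gene's libraries overlapped between the treatments, which is a description, as the share of all tested genes that separate so is not given. Acta2 and Acta1 were the 2 calls of 9, both lower, where 13.3% of all tested genes were lower and 27.6% higher. The cytoplasmic actin Actg1 differed by -0.64 in the same comparison (limma, adjusted p = 0.00151). Whether its fragments entered the Acta2 values was not tested. With library weights 5 of 9 were called, with Tagln and Tpm2 higher and Tpm1 lower in addition. After median of ratios scaling 2129 of all tested genes were higher and 2260 lower, against 3262 and 1564 as reported. Myl9 differed by 0.05 (interval -0.25 to 0.36, adjusted p = 0.788) and Tagln by 0.26 (interval -0.12 to 0.63, adjusted p = 0.251), so a difference up to those bounds remains possible. The Tagln libraries did not overlap between the treatments, and its difference was called in 2 of the 23 alternatives. Both treatments share the KO_siCtrl libraries as their control, so their 2 sets of differences are not independent.

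With either treatment the tested members were called lower than in the Dicer f/f line. Of 9 tested genes, 9 were lower than WT_siCtrl in KO_let-7g, where 22.8% of all tested genes were lower, and 9 in KO_siNr6a1, where 27.4% were. A difference was again built into the passing of Actg2 and Cnn1, through WT_siCtrl alone, and of Lmod1, which passed only with that group. Acta2 reached 1.6% of its WT_siCtrl mean with let-7g and 3.24% with siRNA against Nr6a1, Tagln 1.92% and 1.5%, and Myl9 4.75% and 4.58%. Cnn1 stood at 0.397% and 0.205%, and Actg2 at 0.629% and 0.951%. Acta1 was the nearest to its WT_siCtrl level, at 43.8% with let-7g and 72.3% with siRNA against Nr6a1. For Acta1 in KO_siNr6a1, the call against WT_siCtrl (-0.42, limma, adjusted p = 0.0405) was lost in 13 of 23 alternative analyses, among them leaving out WT_siCtrl replicate 0 (-0.22, adjusted p = 0.125, range 0.0199 to 0.325).

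Each member has relatives that build the actin cytoskeleton of non-muscle cells or of other muscles, and 25 such genes were in the table. Of the 16 tested, 11 were lower in KO_siCtrl than in WT_siCtrl and 1 was higher, with a median of -0.43. The shares of all tested genes in this comparison were 25.2% lower and 29.1% higher. Here and in the lists below, a gene that passed the filter through a single genotype had a difference built into its passing. Such genes were not counted apart. Among the actins, cytoplasmic Actb had means of 2825 ± 352 FPKM in WT_siCtrl and 2684 ± 440 in KO_siCtrl, a difference of -0.08 (limma, adjusted p = 0.753), which turned to 0.20 after quantile normalization. Cytoplasmic Actg1 went from 940 ± 101 to 524 ± 31.8 FPKM (-0.84, adjusted p = 0.000124). Cardiac Actc1 was at 0.486, 16.7 and 12.3 FPKM in WT_siCtrl and 0.0587, 0.790 and 0.762 in KO_siCtrl, with replicate 0 the lowest in both. Those ranges overlapped, and the difference of -2.24 (adjusted p = 0.0222) was not called in 5 alternatives, for example without WT_siCtrl replicate 1 (-1.57, adjusted p = 0.0964, range 1.42e-05 to 0.0964).

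The other families are set beside their members in turn. Tagln2, the transgelin of non-muscle cells, was at 398 ± 31.7 FPKM in WT_siCtrl and 320 ± 12.9 in KO_siCtrl (-0.31, limma, adjusted p = 0.00571, not called after quantile normalization at -0.12). The non-muscle calponins Cnn2 (-0.67, adjusted p = 0.000671) and Cnn3 (-0.40, adjusted p = 0.00266) fell, against -5.43 for Cnn1. Tpm4 fell by 1.16 (adjusted p = 2.56e-06), from 654 ± 85.1 to 290 ± 13.1 FPKM, and Tpm3 was at 220 ± 15 and 248 ± 2.1 FPKM (0.17, adjusted p = 0.0592, and 0.0366 with the replicate number as a block). Myl6, the essential light chain shared by smooth muscle and non-muscle myosin, fell by 1.53 (adjusted p = 1.98e-07), Myl4, an atrial light chain, by 1.41 (adjusted p = 0.000203) and the non-muscle light chain Myl12b by 0.46 (adjusted p = 0.000266). Tmod1, a tropomodulin that caps the pointed end of actin filaments, was the relative that rose (0.85, adjusted p = 7.02e-05), from 0.666 to 2.01 FPKM, while Tmod3 fell by 0.76 (adjusted p = 0.000159). With a WT_siCtrl mean under 1 FPKM, Tmod1 passed the filter only with Dicer -/- libraries, so a difference was built into its passing. Non-muscle myosin heavy chain Myh9 was at -0.35 (adjusted p = 0.0373), a call lost in 9 alternatives (adjusted p of 0.00206 to 0.196 over the alternatives). The actin relative Actbl2 and the transgelin relative Tagln3 did not pass the filter.

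The makeup of each family's transcripts differed accordingly. Members made up 27.0% ± 3.44 (SD, n = 3) of the summed actin FPKM in WT_siCtrl and 1.38% ± 0.19 in KO_siCtrl. The tropomyosin members Tpm1 and Tpm2 made up 57.9% ± 1.37 in WT_siCtrl and 41.6% ± 0.806 in KO_siCtrl, then 30.1% ± 1.21 with let-7g and 38.1% ± 1.02 with siRNA against Nr6a1. Among calponins, Cnn1 was 10.2% ± 0.31 of the sum in WT_siCtrl and 0.0228% to 0.0613% on average in the Dicer -/- groups. Among transgelins, Tagln was 27.4% ± 5.62 in WT_siCtrl and 0.487% to 0.751% in those groups.

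**Figure D3:**
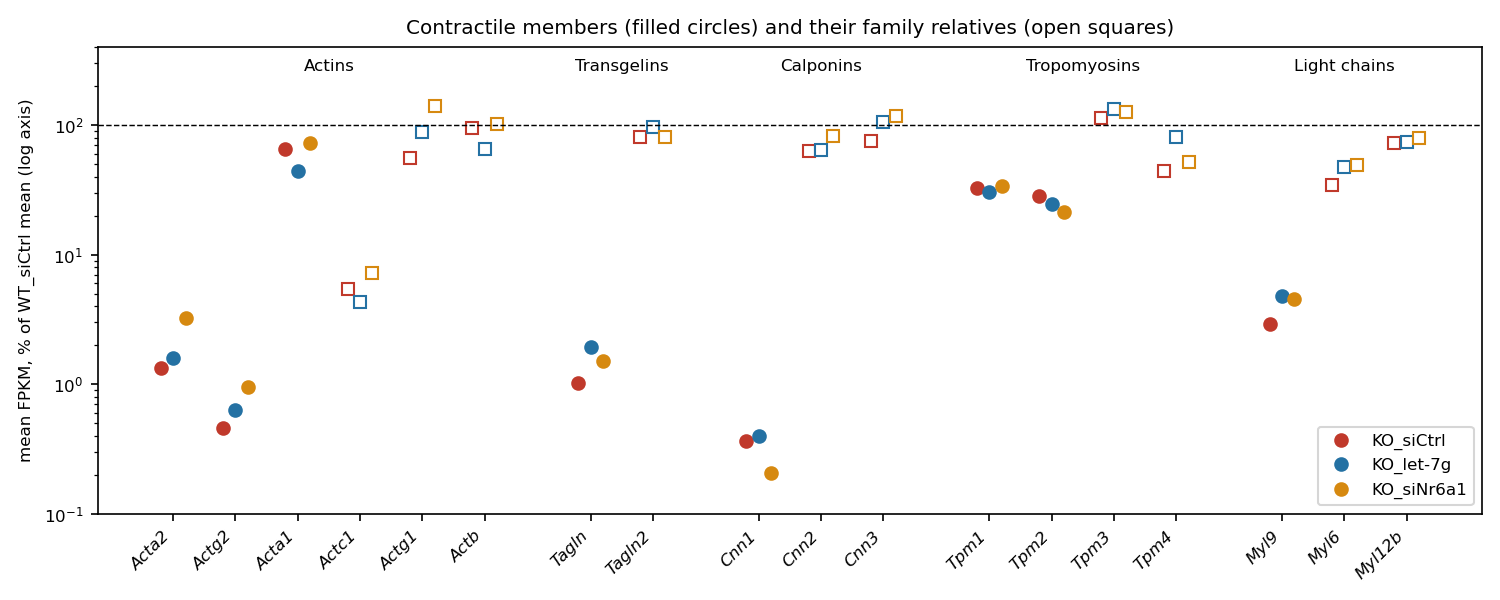
Mean FPKM in the 3 Dicer -/- groups as a percentage of the WT_siCtrl mean, log axis, for the members (filled circles) and their relatives (open squares), grouped by family. Cnn1 in KO_siNr6a1 is the lowest point, at 0.205%. The cardiac relative Actc1 lies among the low points beside Myl9, while the cytoplasmic actin Actb in KO_siCtrl lies close to its WT_siCtrl level.

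With the treatments, some of the relatives changed. Actg1 rose to 835 ± 25 FPKM with let-7g (0.67 against KO_siCtrl, limma, adjusted p = 0.000862) and to 1315 ± 196 with siRNA against Nr6a1 (1.32, adjusted p = 4.26e-05), and the treatments differed by -0.64 (adjusted p = 0.00151). Tpm4 rose to 531 ± 17.8 FPKM with let-7g (0.87, adjusted p = 4.28e-05) and stood at 337 ± 21.4 with siRNA against Nr6a1 (0.22, adjusted p = 0.121, and 0.0316 with the block), a difference between the treatments of 0.66 (adjusted p = 0.000412). Cnn3 rose with both (0.48, adjusted p = 0.00114, and 0.63, adjusted p = 0.000444), as did Myl6 (0.44 and 0.50, each at adjusted p = 0.00243). Of the 16 tested relatives, 7 rose and 1 fell with let-7g, where 27.5% of all tested genes rose and 18.2% fell. With siRNA against Nr6a1, 4 rose and 2 fell, where 13.2% of all tested genes rose and 16.3% fell.

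Of 40 other genes known from smooth muscle, 27 were tested, and 17 were lower and 3 higher in KO_siCtrl than in WT_siCtrl, with a median of -0.63. Of all tested genes, 25.2% were lower and 29.1% higher in that comparison. Fhl1, a LIM-domain protein of muscle, fell by 5.61 (limma, adjusted p = 3.5e-10), from 76.7 ± 13.1 to 0.574 ± 0.0905 FPKM. Csrp2, a LIM protein of smooth muscle, fell by 3.06 (adjusted p = 2.93e-07), from 337 ± 44 to 39.8 ± 7.89 FPKM. Aoc3, an amine oxidase on the smooth muscle surface, fell by 2.47 (adjusted p = 8.09e-07), and Cacna1c, the pore of the L-type calcium channel, by 2.09 (adjusted p = 2.59e-08). The size for Cacna1c depended on the processing, from -4.50 to -1.98 over the alternatives. A gene that passed the filter through WT_siCtrl alone had a difference built into its passing. Cacna1c may be such a gene, and its p-value is then no independent test. Such genes were not counted apart among the 17, so part of any excess over the share of all tested genes may come from the filter. Csrp2 rose with both treatments, by 0.93 with let-7g (adjusted p = 0.00254) and 1.47 with siRNA against Nr6a1 (adjusted p = 0.000339). In counts, 9 of the 27 rose and 8 fell with let-7g, where 27.5% of all tested genes rose and 18.2% fell. With siRNA against Nr6a1, 6 rose and 2 fell, where 13.2% and 16.3% of all tested genes did.

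Of 21 tested regulators of SRF and myocardin, 7 were higher and 3 lower in KO_siCtrl than in WT_siCtrl, with a median of 0.03, where 29.1% of all tested genes were higher and 25.2% lower. Those named by size were Klf5 (1.67, limma, adjusted p = 4.35e-06), Gata4 (1.64, adjusted p = 8.37e-07) and Foxf1a (1.27, adjusted p = 0.000618), which rose, and the homeobox gene Prrx1 (-1.19, adjusted p = 8.02e-06), which fell. The next 4 genes were chosen for their roles after their values were seen. Srf averaged 27.7 ± 2.37 FPKM in WT_siCtrl and 27.6 ± 2.07 in KO_siCtrl (interval of the difference -0.21 to 0.21, adjusted p = 0.989). It was at 25.3 ± 1.78 with let-7g and rose to 37.8 ± 3.35 with siRNA against Nr6a1 (0.44, adjusted p = 0.00583), and the treatments differed by -0.56 (adjusted p = 0.000985). Mkl1, a myocardin-related coactivator released by actin assembly, was at 28.1 ± 3.95, 36.1 ± 3.37, 18.0 ± 0.0729 and 32.5 ± 2.03 FPKM in the groups WT_siCtrl, KO_siCtrl, KO_let-7g and KO_siNr6a1. The difference with let-7g was -0.96 (adjusted p = 2.95e-05). Its rise in KO_siCtrl over WT_siCtrl (0.36, adjusted p = 0.011) was lost in 3 alternatives, for example after upper quartile scaling (0.27, adjusted p = 0.065, range 0.0014 to 0.0847).

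Myocardin itself, Myocd, was under the filter, with 0.606, 1.15 and 0.81 FPKM in WT_siCtrl and means of 0.168 ± 0.0543, 0.157 ± 0.0264 and 0.562 ± 0.1 in the 3 Dicer -/- groups with control siRNA, let-7g and siRNA against Nr6a1. Klf4, a repressor of smooth muscle genes, was at 9.21 ± 1.51 FPKM in WT_siCtrl and 7.98 ± 0.951 in KO_siCtrl (-0.18, limma, adjusted p = 0.377). It rose to 37.9 ± 2.17 with let-7g (2.12, adjusted p = 4.66e-06) and to 23.9 ± 5.89 with siRNA against Nr6a1 (1.45, adjusted p = 0.000126). Of 12 immediate-early genes that SRF drives through its other partners, 3 were higher in KO_siCtrl than in WT_siCtrl and 0 were lower. Of all tested genes, 29.1% were higher and 25.2% lower. The 3 were Fosb (0.77, limma, adjusted p = 0.0018), Nr4a1 (0.70, adjusted p = 0.0208) and Mcl1 (0.56, adjusted p = 6.34e-05). Egr1, Fos and Ier2 followed the replicate number, for which the fit had no block. Their SE were 0.78, 0.64 and 0.55, so sizeable differences could go uncalled. Fos, for example, was at 1.06 (adjusted p = 0.187). The call of Nr4a1 was lost with library weights (0.35, adjusted p = 0.15), without WT_siCtrl replicate 0 (0.48, adjusted p = 0.0793) and without KO_siCtrl replicate 2 (0.55, adjusted p = 0.0826, range 0.0022 to 0.15).

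Of 32 tested genes of RhoA signalling and myosin light chain phosphorylation, 10 were lower and 7 higher in KO_siCtrl than in WT_siCtrl, where 25.2% of all tested genes were lower and 29.1% higher. Mylk, myosin light chain kinase, whose substrate is the product of Myl9, fell by 2.05 (limma, adjusted p = 6.16e-07), from 28.3 ± 5.09 to 6.05 ± 0.771 FPKM. It fell further with let-7g, by 0.88 (adjusted p = 0.000514), and with siRNA against Nr6a1, by 0.66 (adjusted p = 0.00577). Rgs2, which dampens signals from Gq-coupled receptors, fell by 2.55 (adjusted p = 5.71e-08) and rose with let-7g by 1.69 (adjusted p = 4.66e-06). Ppp1r14c, an inhibitor of protein phosphatase 1, rose by 3.57 (adjusted p = 1.23e-07), from 0.945 ± 0.159 to 22.8 ± 7.56 FPKM, and was lower with let-7g by 1.39 (adjusted p = 0.00025). With a WT_siCtrl mean under 1 FPKM, it passed the filter only with Dicer -/- libraries, so a difference between genotypes was built into its passing. Its relative Ppp1r14b fell by 1.42 (adjusted p = 4.19e-05).

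**Figure D4:**
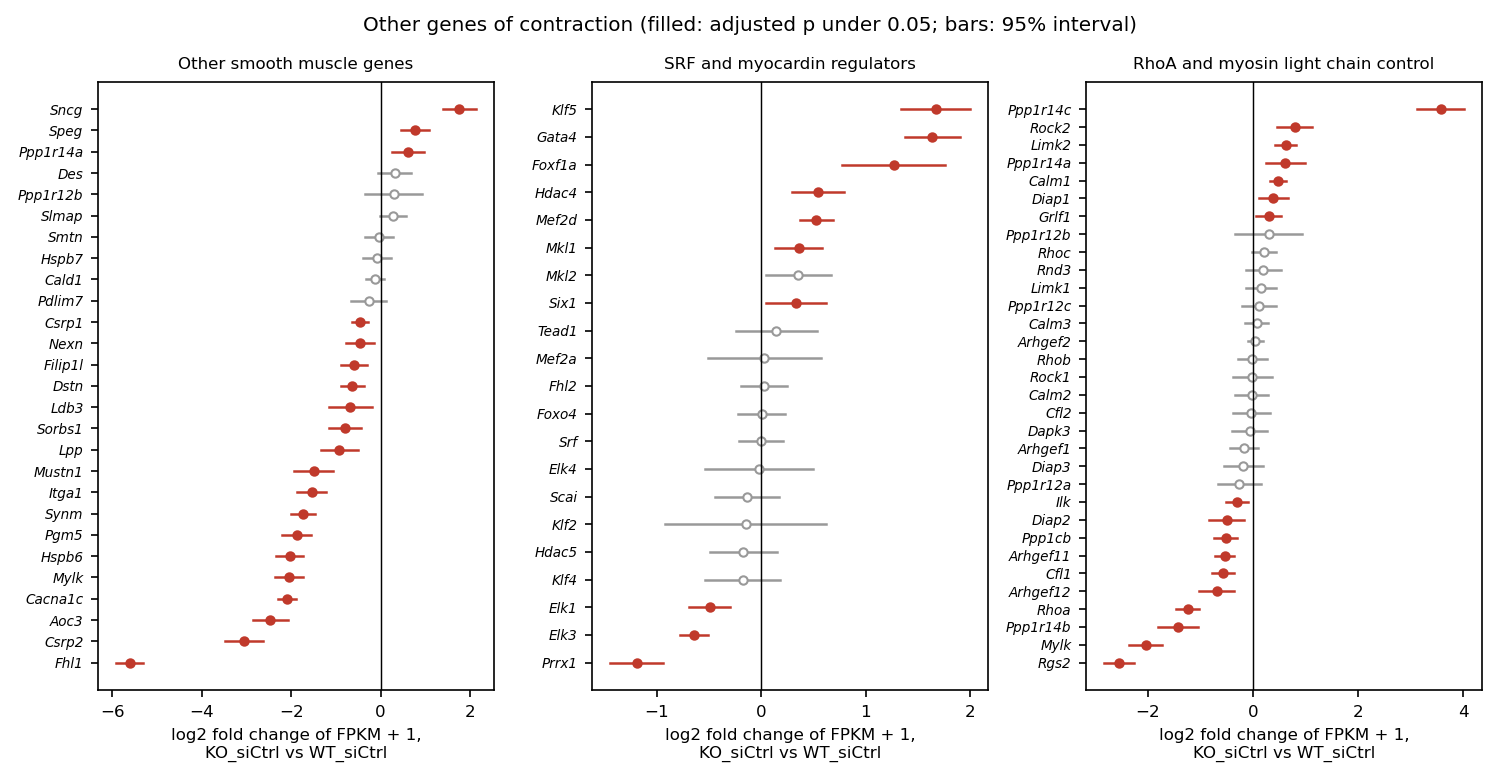
Log2 differences between KO_siCtrl and WT_siCtrl with 95% intervals from limma for tested genes of 3 lists: other smooth muscle genes, regulators of SRF and myocardin, and RhoA and myosin light chain control. Filled points have adjusted p under 0.05. Fhl1 (-5.61) stands at the low end and Ppp1r14c (3.57) at the high end, with Srf between them.

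Focal adhesions, where contractile bundles end, and TGF-beta signals, which induce Acta2 in fibroblasts, were counted in the same way, against the same shares of all tested genes. Of 31 tested focal adhesion and bundle genes, 13 were lower and 7 higher in KO_siCtrl. Tgfb1i1 (Hic-5), a paxillin-like protein, fell by 1.77 (limma, adjusted p = 1.17e-06) from 13.5 ± 1.98 to 3.23 ± 0.43 FPKM. It rose to 11.04 ± 1.36 with let-7g (1.51, adjusted p = 1.16e-05) and to 9.21 ± 1.05 with siRNA against Nr6a1 (1.27, adjusted p = 9.04e-05). Tln2 (-1.56, adjusted p = 1.13e-05) and Anxa2 (-1.03, adjusted p = 4.67e-07) fell and Parvb (1.56, adjusted p = 1.91e-05) rose. Of 19 TGF-beta ligands, receptors and binding proteins, 9 were lower and 4 higher. Among them Ltbp2 (-2.68, adjusted p = 1.02e-08), Bmp4 (-1.95, adjusted p = 7.99e-06) and Inhba (-1.43, adjusted p = 0.000974) fell, and Tgfbr3 (1.57, adjusted p = 8.31e-06) rose. Tgfbr1, chosen after its values were seen, fell with let-7g by 1.68 (adjusted p = 1.08e-05), from 30.3 ± 5.86 to 8.77 ± 1.76 FPKM.

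Across the 12 libraries the members' profiles were alike except for Acta1. Against the mean standardised profile of the 9 tested members, which includes each of them, Pearson's r was 0.975 to 0.996 for 8 members and 0.758 for Acta1. These are descriptions over libraries that share groups, and the gap between WT_siCtrl and the rest sets most of each value. Outside the lists, the 6 genes most like that profile were Plce1 (r = 0.997), Dpysl3 (0.996), Hhip, Cap2, Adam19 and A930038C07Rik (each 0.995). Dpysl3 was at 88.4 ± 8.59 FPKM in WT_siCtrl and 0.116 ± 0.0458 in KO_siCtrl. A930038C07Rik was at 16.5 ± 2.84 and 0.00317 ± 0.00549 FPKM. The other 4 had WT_siCtrl means of 4.19 to 5.64 FPKM and KO_siCtrl means of at most 0.054 FPKM. The likeness that chose these 6 fixes their gap between the genotypes, so it is given without a test.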

How the data were processed

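The authors deposited 1 table of FPKM values for 21881 genes and 12 libraries. TopHat 1.2.0, Cufflinks 1.0.3 and mouse build mm9 are named, per the submitters' processing notes, and their settings were not stated. Values are relative within each library, so large changes in abundant genes move other values, and read counts were not at hand. Relative depth was read from the most common ratio between libraries of values under 0.3 FPKM, taken as that of genes with 1 fragment in each.

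Genes with at least 1 FPKM in at least 3 libraries (11801) were put on the log2(FPKM + 1) scale and fitted with limma 3.58.1 under R 4.3.3: 1 coefficient per group, 8 residual degrees of freedom, a variance trend and two-sided tests. Benjamini-Hochberg adjustment ran over all tested genes in each of 6 comparisons, and a gene was called at adjusted p under 0.05. This scale understates changes of low genes. The fit was tested on simulated data. Groups and replicate numbers came from the titles.

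Members and lists were chosen with earlier results of these data known. Named from each list were up to 4 called genes with the largest difference between KO_siCtrl and WT_siCtrl, every actin, tropomyosin, calponin and transgelin relatives, and the 6 genes nearest to the members' profile. Same-number libraries deviated from their group means together (r of 0.092 to 0.465 in 18 pairs, 17 of them above 0.1). The numbers were taken to pair libraries, from the data, in every comparison but KO_siNr6a1 against WT_siCtrl. The main fit has no block. In all, 23 alternatives were run. Promoter and microRNA sequences are RefSeq's (GRCm38.p6), and transcripts are GENCODE's.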

Additional observations from a re-analysis of the deposited data

How the results depend on the processing

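Of 1236 values of tested members under the alternatives, 1196 kept their direction and their side of the threshold, 18 lost a call, 12 gained one and 10 changed sign, all 10 among values that were not called. The number of members called was within 1.5 times the reported count in every comparison and alternative but 1: with library weights, let-7g and siRNA against Nr6a1 differed in 5 members and not 2. Cnn1 with let-7g turned to -0.02 after quantile normalization and ran from -0.06 to 0.09 when single libraries were left out, below 0 in 3 cases. The summed actins with let-7g were at -0.19, opposite to Acta2 alone. Between the treatments, Myl9 turned to -0.05 after quantile normalization, -0.08 after median of ratios scaling, -0.04 with replicates 1 and 2 alone (an alternative chosen after seeing the data) and from -0.05 to 0.17 when single libraries were left out, and Lmod1 turned to -0.15 after quantile normalization. Among the other genes named, Actb and Srf between genotypes changed sign, Actb to 0.20 after quantile normalization and 0.05 without KO_siCtrl replicate 0, and Srf to as high as 0.05 in a range of -0.07 to 0.05 when single libraries were left out. Of 73 differences given for non-members, 61 changed neither sign nor call. Tpm2 with let-7g was called after median of ratios scaling (-0.29, adjusted p = 0.034, range over the alternatives 0.034 to 0.438).

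With the replicate number as a block, the pairing changed 1 member call, Acta2 with let-7g (0.24, adjusted p = 0.0288), and added calls for Tpm3 and Tpm4 among the non-members named. Scaling moved the split of all calls with let-7g: against KO_siCtrl 60.2% of calls were higher as reported, 50.2% after quantile normalization and 50.4% after median of ratios scaling; against KO_siNr6a1 67.6%, 51.8% and 48.5%; and against WT_siCtrl 60.7% as reported and 47.9% after median of ratios scaling. The median of all genes shifted by over 0.1 only for KO_let-7g against KO_siNr6a1 (0.12 to 0.00, and 0.02 after quantile normalization) and against WT_siCtrl (0.12 to -0.01). The levels of Cnn1 in the Dicer -/- line rest on few fragments.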

Other observations

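Hspb6, a small heat shock protein abundant in smooth muscle, was chosen after its values were seen. It stood at 28.3, 40.5 and 34.5 FPKM in WT_siCtrl, 6.7, 7.7 and 8.36 in KO_siCtrl, 33.5, 39.6 and 40.2 in KO_let-7g and 12.6, 16.4 and 15.2 in KO_siNr6a1. The KO_let-7g libraries lay in the WT_siCtrl range, and KO_siNr6a1 lay between KO_siCtrl and WT_siCtrl without overlap. The differences were -2.03 for KO_siCtrl against WT_siCtrl (limma, adjusted p = 5.49e-07), 2.17 with let-7g (adjusted p = 1.71e-06), 0.87 with siRNA against Nr6a1 (adjusted p = 0.00109) and 1.30 between the treatments (adjusted p = 6.06e-05). Cald1, which encodes caldesmon, an actin-binding inhibitor of myosin, was chosen in the same way. It was at 220 ± 18.2 FPKM (SD, n = 3) in WT_siCtrl and 201 ± 11.6 in KO_siCtrl (-0.13, adjusted p = 0.284). It was lower with let-7g (-0.29, adjusted p = 0.0266) and higher with siRNA against Nr6a1 (0.45, adjusted p = 0.00485), and the treatments differed by -0.75 (adjusted p = 0.000164). Its call with let-7g was lost in 4 alternatives, among them without KO_siCtrl replicate 0 (-0.25, adjusted p = 0.0983) and without KO_let-7g replicate 0 or replicate 2 (range over the alternatives 0.0108 to 0.17). Its call with siRNA against Nr6a1 was lost with replicates 1 and 2 alone (adjusted p = 0.0504). Smtn, smoothelin, had means of 35.7, 35.0, 36.5 and 32.3 FPKM in WT_siCtrl, KO_siCtrl, KO_let-7g and KO_siNr6a1.

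Some genes followed the replicate number in all 4 groups. Egr1, an immediate-early gene under SRF, was at 17.6, 64.5 and 21.5 FPKM in replicates 0, 1 and 2 of WT_siCtrl, 19.8, 89.5 and 20.2 in KO_siCtrl, 29.7, 119 and 29.5 in KO_let-7g and 30.9, 118 and 28.9 in KO_siNr6a1. Replicate 1 was the highest library of each group for Fos, Junb and Ier2 too. Actc1 was lowest in replicate 0 of each group.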
